A study of Homo sapiens with 64 samples.

Results

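The 31 genes described here make cholesterol and fatty acids or control that synthesis, and were taken by name from a list. All 31 are among the 26364 gene symbols of the C4-2 count tables. Each was also looked up in the HEK293T, RIP and SLAM-seq data. By role, 8 belong to the mevalonate arm and 11 to the sterol arm. Another 5 are regulators or sterol carriers, and 7 make or modify fatty acids.

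Cells build cholesterol from acetyl-CoA through mevalonate, isoprenoid diphosphates, squalene and lanosterol, and build fatty acids from the same acetyl-CoA through malonyl-CoA. The SREBP transcription factors, encoded by SREBF1 and SREBF2, drive most of these genes. SCAP escorts SREBPs out of the endoplasmic reticulum when sterols are low, and INSIG1 holds SCAP back when sterols are high, so the genes often move together. Prostate cancer cells are known for high lipid synthesis, which androgen signalling promotes.

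The study asked whether FBL, the methyltransferase that 2′-O-methylates ribosomal RNA in the box C/D particle, also acts on mRNA and its stability. NOP56 is a core protein of the same particle. C4-2, grown in RPMI, comes from prostate cancer and grows without androgen, and HEK293T is a line from embryonic kidney grown in DMEM. Of the 64 libraries, 60 were analysed here, and 4 nanopore libraries were not.

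C4-2 cells received a control small interfering RNA (siCTRL) or one against FBL (siFBL) and were sampled at 0, 3, 6 and 12 h. HEK293T cells received siCTRL, siFBL or one against NOP56 (siNOP56) and were sampled at 0, 6, 12 and 24 h. The hours serve to measure mRNA decay, and the labels name no agent that stopped transcription. RNA immunoprecipitation (RIP) used an antibody to FBL in C4-2 cells with siCTRL, beside input RNA of the same cells. No control antibody library was analysed here. SLAM-seq used C4-2 cells with siCTRL or siFBL. Cells took up 100 µM 4-thiouridine for 24 h, were chased with 10 mM uridine and carry the hours 0, 6, 12 or 24 in their labels. The series design writes shNOP56 where the labels write siNOP56, and the labels were followed. Each siRNA, hour and fraction had 2 libraries. The C4-2 count columns are numbered by replicate but were matched to groups and not to single samples, and A and B stand for numbers 1 and 2. Nothing in the labels says that the 2 libraries of a group came from separate cultures, so the p-values measure a spread that may be technical.

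The depth was 22.9 to 33.3 mega (M) counts per RIP or input library. It was 79.0 to 106.1 M for C4-2, 16 to 19.9 M for HEK293T, and 19.9 to 89.9 M interval reads for SLAM-seq. Values per library are CPM, counts scaled to a common library size with trimmed mean of M-values factors. FBL stood at 265.4 to 388 CPM in the C4-2 siCTRL libraries and 0.601 to 3.63 CPM with siFBL, and at 303 to 485 CPM and 7.19 to 17.7 CPM in HEK293T. NOP56 stood at 49.9 to 92.0 CPM with siNOP56 against 146 to 206 CPM with siCTRL. With siFBL in HEK293T, NOP56 was higher at 0 h, at 360 and 354 CPM against 206 and 204 CPM with siCTRL. At 24 h it was lower, at 140 and 138 CPM with siFBL against 166 and 160 CPM. All 10 prostate luminal markers reached 1 CPM on average in C4-2, with a summed level of 6093 to 7998 CPM with siCTRL and 6495 to 10132 CPM with siFBL. In HEK293T 4 of 10 did so with siCTRL, 4 with siFBL and 3 with siNOP56 (19.7 to 47.8, 11.8 to 40.5 and 9.63 to 41.6 CPM), and KLK2 and KLK3 lay under 0.1 CPM. The 8 HEK293T markers all reached 1 CPM in HEK293T (214 to 333 CPM with siCTRL), but 4 also did so in C4-2 with siCTRL (99.4 to 404 CPM) and 5 with siFBL (38.5 to 310.3 CPM), so the summed level of that list does not set the lines apart. Of 6 fibroblast markers, 2 reached 1 CPM in C4-2 with siCTRL (26.0 to 47.9 CPM) and 4 with siFBL (25.6 to 42.3 CPM). Whether other cells had a part in any result was not tested.

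With siFBL, C4-2 cells at 0 h held less mRNA of genes from all 4 roles. The quasi-likelihood test of edgeR, with p-values adjusted after Benjamini and Hochberg over all 23437 genes tested (adjusted p below 0.05), called 11 of the 31 lower and 1 higher. Over all genes 6.87% were lower and 1.61% higher. The members' median log2 difference was −0.32, with 28 of 31 below 0, beside 0.04 for all genes. The fatty acid arm had 4 of 7 lower (median −0.71), the mevalonate arm 3 of 8 (median −0.25), the regulators 2 of 5 (median −0.38) and the sterol arm 2 of 11 (median −0.14). Fewer cells of a type and less RNA per cell cannot be told apart in such bulk RNA. The count of 12 called members was 6 without siCTRL library A, 7 without siCTRL library B and 6 without siFBL library A at 0 h. When libraries were scaled to the mRNAs of ribosomal proteins, which moved the median of all genes from 0.04 to 0.26, 7 members were called.

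**Figure D1:**
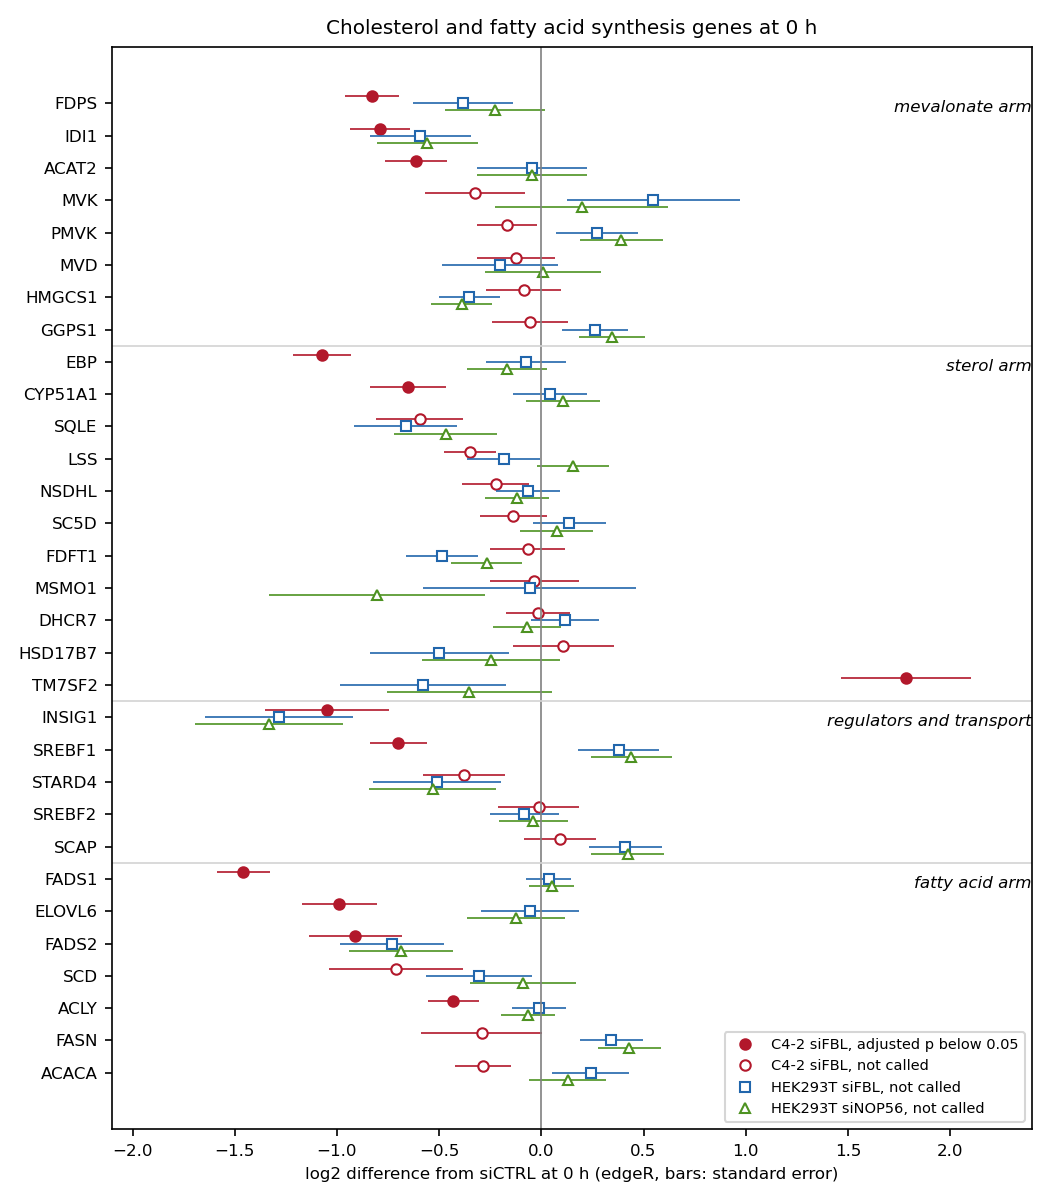
Log2 difference from siCTRL at 0 h for each of the 31 genes, grouped by role, with bars of 1 standard error. Filled symbols passed the test. C4-2 siFBL values reach from FADS1 at −1.46 to TM7SF2 at 1.78, while no HEK293T value with siFBL or siNOP56 passed.

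FADS1, a desaturase on the path to arachidonic acid, fell furthest. It lies on chromosome 11 (61799625 to 61829318, minus strand, GENCODE 29 on GRCh38). Its level at 0 h was 189.5 and 176 CPM in the siCTRL libraries and 61.6 and 71.4 CPM with siFBL. The groups were far apart, 2.75-fold lower with siFBL (log2 −1.46, SE 0.13, adjusted p = 3.95e-06). At 12 h the siCTRL libraries held 319 and 340.1 CPM and the siFBL libraries 136 and 113 CPM. Every siFBL library lay below every siCTRL library over the whole course.

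FADS2, its neighbour at 61792980 to 61867354 on the plus strand, encodes the desaturase that acts before FADS1. It was the most abundant of the 31 for its length in C4-2, at 584 CPM per kb with siCTRL at 0 h. It stood at 2123 and 2120.2 CPM with siCTRL and 877 and 1380.0 CPM with siFBL at 0 h (log2 −0.91, SE 0.23, adjusted p = 0.0205). Its siFBL libraries differed from each other by more than its siCTRL libraries did. The call ended without either siCTRL library or without siFBL library A at 0 h, and under ribosomal protein scaling. FADS1 and FADS2 share 142 exon bases on opposite strands, and whether counting used strand is not stated.

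ELOVL6, which elongates palmitate to stearate, stood at 13.2 and 12.9 CPM with siCTRL and 6.16 and 7.01 CPM with siFBL (log2 −0.99, SE 0.18, adjusted p = 0.0027). ACLY, which makes cytosolic acetyl-CoA from citrate, stood at 585 and 572 CPM and 398 and 460.1 CPM (log2 −0.43, SE 0.12, adjusted p = 0.0432). ELOVL6 stayed called in all 22 alternatives tried, whereas ACLY lost its call in 14. FASN, the fatty acid synthase, was not called. It stood at 2039.9 and 2224 CPM with siCTRL against 1174 and 2309.8 CPM with siFBL, with siFBL library B above both controls (adjusted p = 0.563). SCD, the stearoyl-CoA desaturase, lay at 483 and 482 CPM against 204 and 386 CPM (log2 −0.71, SE 0.33, adjusted p = 0.197), and ACACA, the acetyl-CoA carboxylase, had a log2 difference of −0.28 (adjusted p = 0.215).

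In the mevalonate arm, FDPS, the farnesyl diphosphate synthase, stood at 170.1 and 158 CPM with siCTRL and 87.5 and 97.2 CPM with siFBL (log2 −0.83, SE 0.13, adjusted p = 0.000735). IDI1, the isopentenyl diphosphate isomerase, stood at 67.0 and 53.2 CPM against 33.2 and 36.3 CPM (log2 −0.79, SE 0.15, adjusted p = 0.00277). For both genes the siFBL libraries lay together and well below the controls. ACAT2, the cytosolic acetoacetyl-CoA thiolase, stood at 30.3 and 27.8 CPM against 17.9 and 20.0 CPM (log2 −0.61, SE 0.15, adjusted p = 0.018). The call of IDI1 ended without siCTRL library A (adjusted p = 0.0793), and that of ACAT2 ended in 5 of 22 alternatives. ACAT2 shares 34.8% of its exon bases with SOD2 and 12.5% with TCP1, and FDPS shares 28.9% with RUSC1-AS1, each on the opposite strand, so reads of these partners cannot be told apart without strand. The other 5 members of this arm, HMGCS1, MVK, PMVK, MVD and GGPS1, had log2 differences between −0.32 and −0.05 and were not called.

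In the sterol arm the 3 called genes went in both directions. EBP, the sterol isomerase, on chromosome X (48521158 to 48528716, plus strand), stood at 134 and 124 CPM with siCTRL and 57.4 and 65.3 CPM with siFBL (log2 −1.07, SE 0.14, adjusted p = 0.000147). CYP51A1, the lanosterol demethylase, stood at 158 and 139 CPM against 97.8 and 91.5 CPM (log2 −0.65, SE 0.19, adjusted p = 0.0404). EBP stayed called in all 22 alternatives and CYP51A1 in 11.

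TM7SF2, a sterol reductase of the step after CYP51A1, rose. It lies on chromosome 11 (65111845 to 65116384, plus strand) and stood at 94.4 and 94.0 CPM with siCTRL and 227 and 422 CPM with siFBL at 0 h. Library B stood well above library A and both above the controls, and the rise was 3.44-fold (log2 1.78, SE 0.32, adjusted p = 0.00193). At 12 h it stood at 154 and 156 CPM against 385 and 584 CPM, and over all hours every siFBL library lay above every siCTRL library. The other 8 sterol arm genes were not called at 0 h. They ranged from SQLE, the squalene epoxidase, at −0.60 (adjusted p = 0.0955) to HSD17B7, a ketosteroid reductase, at 0.11.

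Among the regulators, INSIG1 stood at 144 and 155 CPM with siCTRL and 49.97 and 94.7 CPM with siFBL (log2 −1.05, SE 0.30, adjusted p = 0.0419). SREBF1 stood at 436 and 479 CPM against 254 and 309 CPM (log2 −0.70, SE 0.14, adjusted p = 0.00488). In both, the siFBL libraries lay below the controls, with library A the lower one. The INSIG1 call ended in 10 of 22 alternatives and the SREBF1 call without siFBL library A (adjusted p = 0.0678). SREBF2 and SCAP were close to the controls, with log2 differences of −0.01 (SE 0.20) and 0.09 (SE 0.17), and STARD4, a carrier that moves sterols between membranes, had −0.38 (SE 0.20, adjusted p = 0.261).

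Promoter sequence was read for the members from RefSeq (GRCh38.p14), in windows of the 250 bases before a transcript start. No entry was found for FASN, ACAT2, SQLE and FDFT1, and the other 27 members had 38 windows. CCAAT on either strand, the letters that NF-Y binds and a usual companion of SREBP sites, was in 24 of the 38 windows (63.2%) and in 20 of the 27 members, beside 32.0% of all 34788 windows. The letters TCACNCCAC, a core of the sterol regulatory element, on either strand, were in 1 of 38, that of SREBF2, beside 0.882% of all. CACGTG, the palindromic E-box, was in 4 of 38, of INSIG1, SC5D and SCAP, beside 6.31% of all. Windows of a gene can overlap, so the windows are not independent. Those of SC5D hold the same E-box, and those of ACLY the same CCAAT letters. A match in a window is a description of its letters and no site of binding. Below are 3 promoters with the letters and 2 without, all of genes that fell at 0 h in C4-2 cells, chosen after their values were seen. Each is the window before a RefSeq transcript start, written 5′ to 3′ and ended before the first exon base of the GENCODE 29 basic set, with CCAAT or its complement ATTGG in capitals. The stretches of ACLY and ELOVL6 lie inside the gene as GENCODE draws it, downstream of another annotated start.
IDI1 (chr10:1049171-1049369, minus strand): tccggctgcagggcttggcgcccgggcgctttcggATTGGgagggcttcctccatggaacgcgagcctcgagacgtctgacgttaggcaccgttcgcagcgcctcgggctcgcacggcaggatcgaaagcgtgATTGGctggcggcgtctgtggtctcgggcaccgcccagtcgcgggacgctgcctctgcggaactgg
INSIG1 (chr7:155297628-155297775, plus strand): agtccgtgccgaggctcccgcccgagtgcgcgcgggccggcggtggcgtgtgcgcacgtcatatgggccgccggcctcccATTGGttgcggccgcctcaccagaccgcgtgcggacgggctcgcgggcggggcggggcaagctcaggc
ACLY (chr17:41919023-41919272, minus strand): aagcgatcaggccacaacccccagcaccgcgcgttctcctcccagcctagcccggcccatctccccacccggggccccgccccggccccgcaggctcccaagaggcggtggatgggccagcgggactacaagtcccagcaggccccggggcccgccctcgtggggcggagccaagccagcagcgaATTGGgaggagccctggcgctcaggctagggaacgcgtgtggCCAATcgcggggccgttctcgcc
SREBF1 (chr17:17837003-17837236, minus strand): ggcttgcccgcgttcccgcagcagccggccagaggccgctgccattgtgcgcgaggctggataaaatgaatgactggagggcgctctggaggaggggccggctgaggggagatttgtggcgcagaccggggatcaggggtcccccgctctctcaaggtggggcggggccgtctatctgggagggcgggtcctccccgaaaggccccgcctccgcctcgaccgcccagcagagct
ELOVL6 (chr4:110198677-110198865, minus strand): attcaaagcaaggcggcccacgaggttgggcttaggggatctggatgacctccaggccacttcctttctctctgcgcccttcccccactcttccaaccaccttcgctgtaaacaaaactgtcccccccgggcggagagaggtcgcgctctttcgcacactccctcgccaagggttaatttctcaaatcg
The genes that fell thus include promoters with and without the letters, and the share of members with CCAAT is described here with no test.

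The differences in C4-2 cells lasted through the hours. IDI1, FDPS, EBP, SREBF1, ACAT2, ELOVL6 and FADS1, 7 of the 31, were called lower at each of the 4 hours, beside 4.21% of all genes. Every siFBL library lay below every siCTRL library over all hours for IDI1, EBP, SREBF1, ELOVL6 and FADS1, 5 of 31 beside 4.9% of all genes, and above for TM7SF2, beside 1.48%. Over the mean of 3, 6 and 12 h, 14 members were lower and 1 higher, beside 21.9% and 12.7% of all genes, with a median of −0.16 beside 0.09. Beyond those lower at 0 h, this added SQLE (−0.81, adjusted p = 0.000101), LSS, the lanosterol synthase (−0.33, adjusted p = 0.00279), and SCD (−0.59, adjusted p = 0.0246). The SCD call ended in 5 of 21 alternatives, with relative log expression factors, with ribosomal protein scaling, and without siFBL library A of 3, 6 or 12 h. Such p-values take the hours as independent, although siFBL libraries deviated alike between hours (r 0.676 to 0.813 across genes, which are not independent replicates). With the 6 h libraries alone, 4 members were called.

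**Figure D2:**
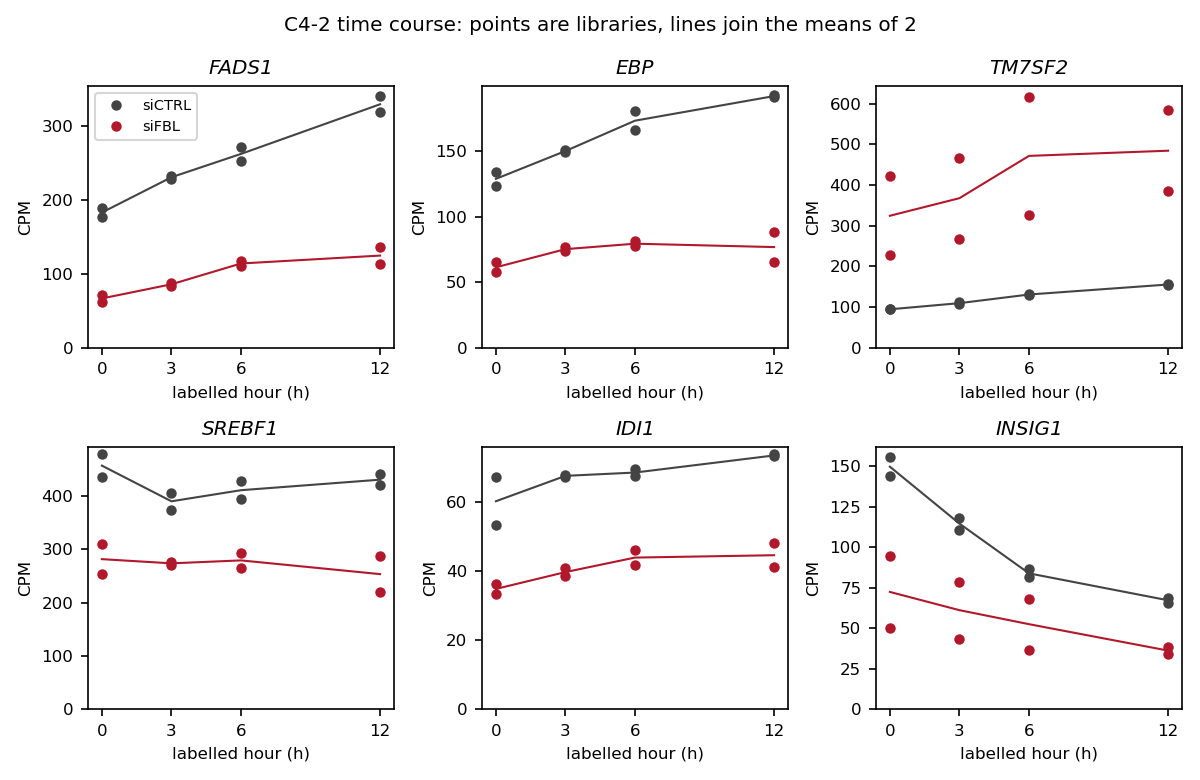
CPM of 6 genes in each C4-2 library by labelled hour, with lines through the means of the 2 libraries. FADS1, EBP, SREBF1 and IDI1 with siFBL lie below siCTRL throughout, TM7SF2 lies above, and both INSIG1 curves go down with time.

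HEK293T cells at 0 h showed no called member with siFBL, beside 1.74% of all 14939 genes tested (260 genes), and none with siNOP56, beside 0.187%. At an unadjusted p under 0.05 there were 8 members with each knockdown, and DESeq2 called 1 with each. The share of all genes under that unadjusted p is not given here, so the count of 8 shows no excess. The median was −0.07 for both knockdowns, beside 0.04 and 0.05 for all genes. These contrasts share their siCTRL libraries.

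INSIG1 had the lowest HEK293T values for both knockdowns. It stood at 113 and 109.9 CPM with siCTRL, 39.2 and 52.4 CPM with siFBL, and 64.8 and 23.6 CPM with siNOP56. The knockdown libraries all lay below the controls, with log2 differences of −1.28 (SE 0.36, adjusted p = 0.0769) and −1.33 (SE 0.36, adjusted p = 0.15). FADS2 stood at 110.5 and 107 CPM with siCTRL, 74.9 and 55.8 CPM with siFBL, and 73.8 and 61.0 CPM with siNOP56. Its groups did not overlap either, yet the siFBL difference of −0.73 (SE 0.26) did not pass (adjusted p = 0.145). With 2 libraries a group, a gap between groups says little by itself, and its share over all genes is not given here.

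On the upper side, MVK, the mevalonate kinase, stood at 17.5 and 17.5 CPM with siCTRL and 20.5 and 30.6 CPM with siFBL (log2 0.55, SE 0.42, adjusted p = 0.537). SCAP stood at 184 and 186 CPM with siCTRL, 237 and 255 CPM with siFBL, and 219 and 277 CPM with siNOP56. The SCAP groups did not overlap, and the siFBL difference was 0.41 (SE 0.18, adjusted p = 0.241). With siNOP56, MSMO1, a methyl sterol oxidase, stood at 11.2 and 17.6 CPM against 26.2 and 24.0 CPM with siCTRL (log2 −0.81, SE 0.53, adjusted p = 0.584). SREBF1 stood at 83.1 and 109 CPM with siNOP56 against 69.5 and 72.1 CPM (log2 0.44, SE 0.20, adjusted p = 0.391), and FASN at 1381 and 1772 CPM against 1177 and 1165 CPM (log2 0.43, SE 0.15, adjusted p = 0.285). In each of these the siNOP56 libraries stood apart from the controls while the test was not passed.

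Set directly against each other, siFBL and siNOP56 gave 0 called members at 0 h by edgeR, and 0 members had an unadjusted p under 0.05 (0.0201% of all genes were called). DESeq2 also called 0. The differences ran from −0.34 (LSS, SE 0.18) and −0.25 (HSD17B7, SE 0.34) to 0.35 (MVK, SE 0.42) and 0.75 (MSMO1, SE 0.53). LSS stood at 77.6 and 73.5 CPM with siCTRL, 74.3 and 58.6 CPM with siFBL, and 79.9 and 88.3 CPM with siNOP56. HSD17B7 stood at 11.6 and 10.4 CPM, 9.14 and 6.40 CPM, and 9.62 and 8.92 CPM. MSMO1 with siFBL stood at 20.4 and 27.8 CPM, around its controls. With standard errors of this size, a missed threshold does not show that the knockdowns acted alike.

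Over the mean of 6, 12 and 24 h in HEK293T, siFBL had 12 members lower and 7 higher, beside 18.6% lower and 21.1% higher over all genes, with a median of −0.22 beside 0.01. The sterol arm had 6 of 11 lower and 0 higher: SQLE (−0.81), HSD17B7 (−0.80), TM7SF2 (−0.64), FDFT1, the squalene synthase (−0.55), NSDHL, a sterol dehydrogenase (−0.37) and SC5D, a sterol desaturase (−0.30). The mevalonate arm had IDI1 (−0.77), HMGCS1, the HMG-CoA synthase (−0.46), and FDPS (−0.39) lower, and MVK (0.71) and PMVK, the kinase after MVK (0.30), higher. At 6, 12 and 24 h MVK stood at 12.0, 10.5 and 10.6 CPM in siFBL library 1 and 23.6, 25.3 and 31.7 CPM in library 2. Its siCTRL libraries lay at 10.8 to 12.7 CPM, so its rise rests on library 2. The call ended in 9 of 29 alternatives for MVK, 15 for PMVK and 10 for SC5D. INSIG1 (−1.25, SE 0.21, adjusted p = 0.000265) and STARD4 (−0.68) were lower and SCAP (0.67, SE 0.10, adjusted p = 0.000117) and SREBF1 (0.47) higher. In the fatty acid arm FADS2 (−0.84) was lower and FASN (0.52), ACACA (0.37) and ACLY (0.21) were higher. The count of 19 fell to 12 without siCTRL library 1 of 12 h or of 24 h. Under ribosomal protein scaling, 7 were lower and 9 higher, with the median of all genes moved from 0.01 to 0.18.

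siNOP56 over the same hours had 6 members lower and 4 higher, beside 12.3% and 14.7% of all genes, with a median of −0.15 beside 0.01. INSIG1 (−1.25), MSMO1 (−1.03), FADS2 (−0.72), IDI1 (−0.68), STARD4 (−0.52) and HMGCS1 (−0.43) were lower, and SCAP (0.56), SREBF1 (0.50), FASN (0.45) and PMVK (0.43) were higher. The call ended in 12 of 29 alternatives for STARD4 and 7 for MSMO1, and the others kept theirs in all 29. Under ribosomal protein scaling 4 were lower and 4 higher. In HEK293T the libraries of one knockdown deviated alike between hours (r 0.813 to 0.913 with siFBL and 0.655 to 0.882 with siNOP56, across genes), so the later p-values count as independent what was not. With the libraries of 6, 12 or 24 h alone, 0 members were called for either knockdown. HMGCS1 was the single member whose libraries did not overlap over all hours: the siCTRL libraries lay at 32.5 to 42.2 CPM, siFBL at 24.6 to 29.9 CPM and siNOP56 at 22.7 to 31.5 CPM. This held for 1.87% of all genes below siCTRL with siFBL and 0.977% with siNOP56.

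**Figure D3:**
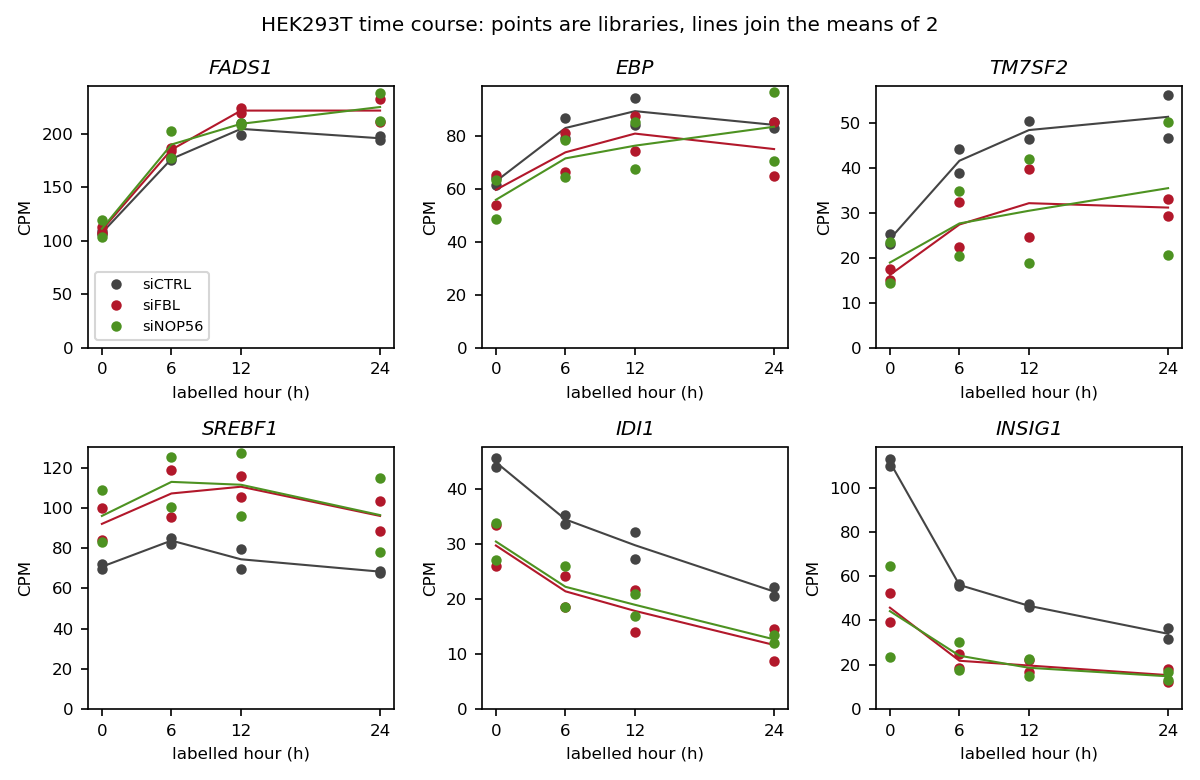
CPM of the same 6 genes in each HEK293T library by labelled hour for siCTRL, siFBL and siNOP56, with lines through the means of the 2 libraries. INSIG1 and IDI1 go down with time in each group, with the knockdown means below siCTRL, while FADS1 means differ little at 0 h and SREBF1 with either knockdown lies above siCTRL.

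The response to siFBL differed between the lines for 4 members. In 1 model of both time courses, the C4-2 difference at 0 h minus the HEK293T difference was called higher for 1 member and lower for 3, beside 3.26% and 4.24% of 17634 genes, with a median of −0.06 beside 0.05. FADS1 differed by −1.28 (SE 0.14, adjusted p = 1.86e-06): its HEK293T libraries lay at 106 and 109 CPM with siCTRL and 113 and 107 CPM with siFBL. TM7SF2 differed by 2.57 (SE 0.57, adjusted p = 0.0056). Its HEK293T libraries lay at 25.3 and 23.1 CPM with siCTRL and 17.4 and 15.0 CPM with siFBL, on the other side of the controls from C4-2. SREBF1 differed by −0.87 (SE 0.24, adjusted p = 0.022), with 69.5 and 72.1 CPM against 100.0 and 84.1 CPM in HEK293T, again on the other side. EBP differed by −0.78 (SE 0.24, adjusted p = 0.0424), with HEK293T libraries that overlapped, at 64.0 and 61.4 CPM against 53.8 and 65.2 CPM. FADS1 kept its call in all 13 alternatives. TM7SF2 lost it without C4-2 siFBL library B (1.89, adjusted p = 0.0509), SREBF1 in 2 alternatives and EBP in 5, and without C4-2 siFBL library A 2 members were called.

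Other members moved in the same direction in both lines. Over the later hours IDI1, FDPS, SQLE, INSIG1 and FADS2, 5 of 31, were called lower with siFBL in both, beside 6.09% of 14553 genes. TM7SF2, SREBF1 and ACLY, 3 of 31, were called with opposite signs, beside 10.6%. In HEK293T the later call ended in 12 of 29 alternatives for FDPS, 11 for TM7SF2 and 10 for ACLY. For INSIG1, IDI1 and FADS2 at 0 h, the test of the line difference gave 0.44 (SE 0.51), 0.02 (SE 0.29) and 0.03 (SE 0.38), none called. Levels per transcript length are given side by side with no test, since each line was scaled within its own tables. With siCTRL at 0 h, SREBF1 stood at 108 CPM per kb in C4-2 and 16.6 in HEK293T, and FADS2 at 584 and 29.9. SCD was the highest member in HEK293T, at 200.4 CPM per kb beside 90.1 in C4-2.

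Relative to input, members were spread to both sides in FBL RIP from C4-2 cells. edgeR called 14 members higher and 16 lower of 31, beside 39.9% higher and 43% lower over 14967 genes, so a call alone says little here. The median was −0.34 beside −0.11. The fatty acid arm had 5 of 7 higher (median 1.05) and the regulators 3 of 5 (median 0.29), whereas the sterol arm had 7 of 11 lower (median −0.85) and the mevalonate arm 5 of 8 (median −0.81). CYP51A1 was not called (0.12, adjusted p = 0.188). With ribosomal protein scaling, which moved the median of all genes to 0.88, 18 were higher and 7 lower. ELOVL6, MVD, NSDHL, PMVK, SCAP and SQLE then changed sign.

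ACACA had the highest value: 743 and 809 CPM in input and 4698 and 4867 CPM in RIP (log2 2.62, SE 0.08, adjusted p = 2.95e-23). HMGCS1 stood at 27.3 and 28.5 CPM in input and 121 and 123 CPM in RIP (log2 2.13, SE 0.07, adjusted p = 9.2e-23). FDFT1 stood at 153 and 163 CPM against 540.1 and 640.0 CPM (log2 1.90, SE 0.07, adjusted p = 1.13e-20). In these and the genes below, the 2 libraries of a fraction lay close together and the fractions did not overlap. FASN stood at 2991 and 3240 CPM against 10228 and 11939 CPM (log2 1.83), and IDI1 at 10.3 and 11.3 CPM against 38.3 and 36.7 CPM (log2 1.80). SCD stood at 188 and 210.0 CPM against 590.2 and 608 CPM (log2 1.59). ACACA and HMGCS1 act early in their branches, and SCD acts on finished fatty acids. In the mevalonate arm HMGCS1, IDI1 and FDPS (1.09) were higher. ACAT2 (−1.16), MVK (−1.66), PMVK (−0.89), MVD (−0.74) and GGPS1 (−1.36) of that arm were lower. Whether RIP values follow the order of the steps was not tested.

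MSMO1 was lowest, at 24.2 and 22.8 CPM in input and 2.67 and 2.77 CPM in RIP (log2 −3.11, SE 0.12, adjusted p = 2.81e-20). HSD17B7 stood at 20.5 and 21.5 CPM against 4.83 and 5.08 CPM (log2 −2.08, SE 0.11, adjusted p = 5.28e-17). EBP stood at 60.0 and 59.7 CPM against 13.5 and 17.2 CPM (log2 −1.96, SE 0.09, adjusted p = 4.31e-19). MVK stood at 14.0 and 15.6 CPM against 4.71 and 4.66 CPM (log2 −1.66, SE 0.12, adjusted p = 1.48e-13). MSMO1, HSD17B7 and EBP act after CYP51A1 in the sterol arm. Background of the antibody was not measured in the libraries analysed here.

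RIP values moved with transcript length across all genes. Of all tested genes, 86.0% had a length (longest coding transcript, GENCODE 29), as did 31 of 31 members. The genes were cut into 4 bins of equal size by length. From the shortest to the longest bin, the median log2 value was −0.97, −0.33, 0.18 and 0.86. The members' medians in these bins were −0.85 (7 genes), −1.03 (11 genes), 0.47 (8 genes) and 1.59 (5 genes), with the second bin below the first. The part of length in the RIP values was not tested. Genes that fell with siFBL at 0 h in C4-2 lay on both sides in RIP: IDI1 (1.80), FDPS (1.09), FADS2 (1.05), SREBF1 (0.86), ACLY (0.55) and INSIG1 (0.29) were higher, and ELOVL6 (−0.92), ACAT2 (−1.16), FADS1 (−1.34) and EBP (−1.96) lower. TM7SF2, which rose, was higher in RIP (0.48).

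**Figure D4:**
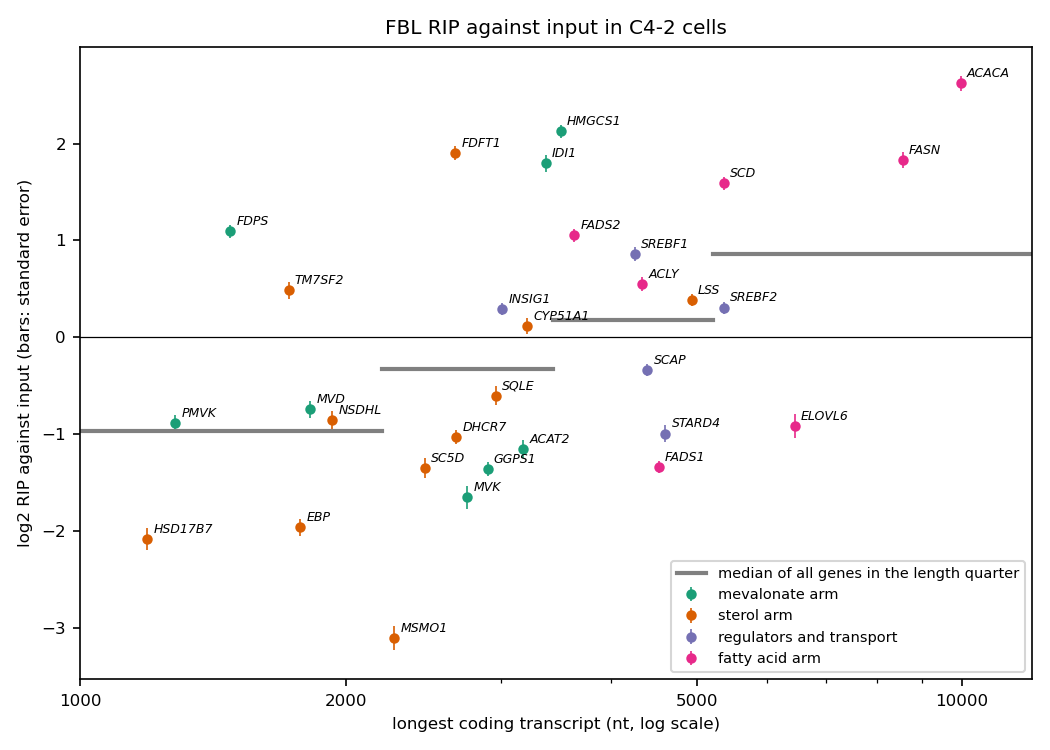
RIP minus input (log2, bars of 1 standard error) against the length of the longest coding transcript (nucleotides, log axis) for the 31 genes. Grey lines give the median of all genes in each of 4 length bins, from −0.97 to 0.86, and the members lie on both sides of them.

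Decay was read as the slope of log2 level on hour, relative to the other mRNAs of a library, and a transcript lost more slowly than most has a slope above 0. In C4-2 with siCTRL, 14 members had a positive and 4 a negative slope, beside 15.9% and 19.2% of 22869 genes, with a median of 0.035 per hour beside 0.0035. HSD17B7 (−0.176 per hour), MVK (−0.118), INSIG1 (−0.096) and SQLE (−0.074) were lost fastest, and FADS1 (0.068), SCD (0.067) and FADS2 (0.067) were among the slowest. INSIG1 in C4-2 with siCTRL went from 144 and 155 CPM at 0 h to 65.5 and 68.9 CPM at 12 h. In HEK293T, 11 were positive and 5 negative, beside 22.2% and 28.6% of 14712 genes, with a median of 0.015 beside −0.0052. HSD17B7 (−0.151), SQLE (−0.122) and INSIG1 (−0.066) were negative there too, with IDI1 (−0.043) and ELOVL6 (−0.027), and FADS2 (0.070) and DHCR7, the last reductase of cholesterol synthesis (0.067), were the highest. The sign of the called positive slopes rests on the scaling in C4-2, as does that of some in HEK293T. The called negative slopes kept their sign in both lines. With ribosomal protein scaling 0 slopes were called positive and 27 negative in C4-2, and 3 and 17 in HEK293T, while the median of all genes moved to −0.089 in C4-2.

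By edgeR's test no member's slope was called different with knockdown: 0 of 31 for siFBL in C4-2, and 0 of 31 for siFBL and for siNOP56 in HEK293T. Over all genes 0.00437% were called in C4-2, 0% with siFBL and 0% with siNOP56 in HEK293T. At an unadjusted p under 0.05 there were 1, 1 and 0 members, and DESeq2 called 0 members in each. The slope difference of FADS1 in C4-2 was 0.007 per hour (SE 0.017) and that of TM7SF2 −0.010 (SE 0.034). The FADS1 slope was not called different at these hours. Since hardly any gene was called, a missed call does not show that decay was unchanged. The part of decay in the lower FADS1 level at 0 h was not tested.

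In SLAM-seq, which reads 3′ ends, 28 members were tested, and FDFT1, LSS and ACACA were too sparse (36, 1 and 9 reads in all). Over all labelled hours, 1 member was called with siFBL, beside 0.338% higher of 14207 genes. Another count, of 6 members with an unadjusted p under 0.05, is given without the share of all genes and shows no excess. SREBF2 stood at 20.2 to 33.3 CPM in the 8 siCTRL libraries (median 27.1) and 35.7 to 64.4 CPM in the 8 siFBL libraries (median 43.8). The SREBF2 groups did not overlap (log2 0.79, SE 0.14, adjusted p = 0.0121). Nor did those of DHCR7 (47.1 to 65.9 against 68.8 to 88.6 CPM) and FASN (180 to 229 against 237 to 627 CPM). Both were higher with siFBL but not called (adjusted p = 0.077 and 0.0549). The share of all genes without overlap is not given here. With the hour of the file header in place of the label, 7 members were called, all higher, and 1655 genes in all instead of 132. TM7SF2 stood at 57.8 to 130.3 CPM (median 89.7) against 116 to 449.6 CPM (median 146), an overlap, with a log2 difference of 1.07 (SE 0.28, adjusted p = 0.08). FADS1, which fell in the C4-2 RNA-seq, lay at 40.2 to 99.6 CPM (median 46.9) against 49.4 to 69.8 CPM (median 61.1), with a difference of 0.01 (SE 0.20). EBP had a difference of −0.00 (SE 0.21) and INSIG1 0.10 (SE 0.19). These are means over hours and can hide differences of opposite sign. At header hour 0, EBP stood at 123 and 117 CPM with siCTRL against 96.8 and 103 CPM with siFBL. At header hour 24 it stood at 41.1 and 44.9 against 74.7 and 76.0 CPM. FADS1 stood at 45.7 and 41.0 against 55.0 and 49.4 CPM at header hour 0. At header hour 24 it stood at 99.6 and 93.0 against 66.6 and 64.7 CPM. On the lower side, SQLE stood at 8.49 to 17.4 CPM (median 14.1) against 7.30 to 19.5 CPM (median 13.1) and ELOVL6 at 0.185 to 3.84 CPM (median 1.04) against 0.200 to 2.35 CPM (median 1.09), both with wide overlap. The median over members was 0.14 beside −0.02.

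In 12 of the 16 SLAM-seq libraries the file header names another hour than the label. From labelled 0 h to 24 h, the library share of reads with T>C conversions went from 56.8% to 23.2% and from 11.1% to 35.5% in the siCTRL replicates, and from 53.8% to 20.1% and from 5.18% to 31.4% with siFBL. A chase dilutes the label, so no decay comparison over labelled hours is given. By labelled hour, which puts libraries of 56.8% and 11.1% in 1 group, the test of the T>C share called 0 of 28 members. It called 0% of 12760 genes, with 0 members at an unadjusted p under 0.05. Standard errors were 1.11 to 2.97 on the log2 odds scale. With groups so mixed the test could hardly call any gene, so no conclusion is drawn from it. With the header hour, 9 members were called, all lower with siFBL, and 3711 of the 12760 genes. By label the members ran from ELOVL6 at −1.97 and SQLE at −1.27 to HSD17B7 at 0.08 and STARD4 at 0.85, with a median of −0.42 beside −0.52 for all genes.

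By header hour, given as a description, the members' pooled T>C share at 0, 6, 12 and 24 h was 67.7% and 68.1%, 42.3% and 41.0%, 21.1% and 21.2%, and 5.19% and 4.84% with siCTRL. With siFBL it was 59.8% and 59.8%, 35.6% and 35.7%, 19.0% and 18.7%, and 3.32% and 3.78%. The whole libraries showed 56.7% to 56.8% at 0 h and 11.1% to 11.2% at 24 h with siCTRL, and 53.5% to 53.8% and 5.18% to 5.35% with siFBL. The members' pooled share thus started above that of the library and ended below it with both RNAs. Not every member did so. With siCTRL at 0 h EBP stood at 47.5% and 48.4%, below the library. With siFBL at 24 h EBP stood at 6.34% and 8.11%, above the library. Within the set, HMGCS1 went from 90.3% and 86.6% to 2.87% and 2.97% with siCTRL, and FADS2 from 47.3% and 42.3% to 9.10% and 7.88%.

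**Figure D5:**
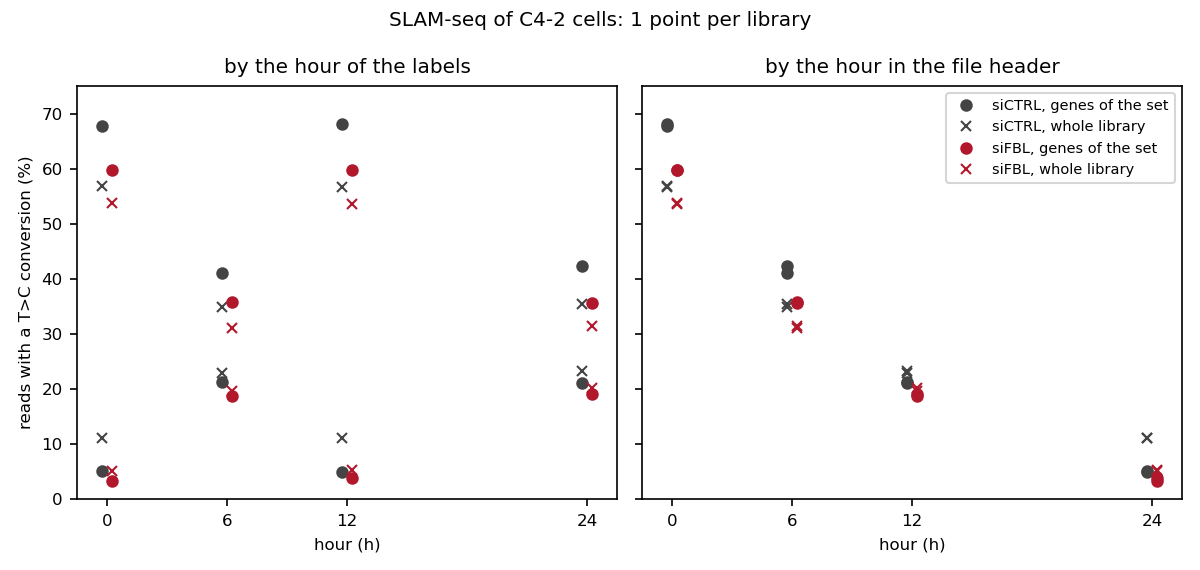
Share of reads with T>C conversions (%) in each SLAM-seq library, by labelled hour in one panel and by header hour in the other. Dots pool the tested members and crosses give the whole library. By header hour the shares go down from 0 to 24 h with both RNAs, while by labelled hour they do not.

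Another 48 genes of the wider pathway were counted in the same way. At 0 h in C4-2, 4 of 48 fell (8.33%, beside 6.87% of all genes) and 0 rose, with TMEM97, a sterol-regulated membrane protein, at −1.32, PDSS1, which makes the side chain of coenzyme Q, at −0.82 and ERLIN1, a sterol-sensing endoplasmic reticulum protein, at −0.75. Over the later hours 11 fell (22.9%, beside 21.9% of all genes) and 9 rose (18.8%, beside 12.7%), the latter with ABCA1, the cholesterol exporter, at 1.53. In HEK293T at 0 h 0 were called with siFBL and 0 with siNOP56, with 6 and 5 at an unadjusted p under 0.05 and edgeR's test. For these unadjusted counts the share of all genes is not given here. Over the later hours 11 fell (22.9%, beside 18.6%) and 14 rose (29.2%, beside 21.1%) with siFBL, with TMEM97 at −1.26 and PDSS1 at 1.25. With siNOP56 9 fell (18.8%, beside 12.3%) and 7 rose (14.6%, beside 14.7%), with SCD5, a second desaturase, at −1.41. In RIP 15 were higher (31.2%, beside 39.9%) and 29 lower (60.4%, beside 43%), from ACSL1, an acyl-CoA synthetase, at 2.22 to NPC2, a lysosomal cholesterol carrier, at −2.17.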

How the data were processed

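Of 64 samples in 2 human cell lines, 60 were analysed. For RIP and the time courses the authors deposited raw counts of reads by gene symbol. For SLAM-seq they deposited counts of reads and of T>C reads in 3′ intervals, written by slamdunk 0.4.3 per the file headers. The submitters' processing notes also name TopHat2 2.1.1, HOMER and Trim Galore without saying which step used them. No label or header names the aligner, strand setting or annotation behind the gene counts. Each SLAM-seq gene is its interval with the most reads. The interval CPM that the authors deposited was not used as a value.

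Counts were fitted with edgeR 4.0.16 in R 4.3.3 (trimmed mean of M-values, default low-count filter, quasi-likelihood test) over every library of a table with 1 mean per siRNA and hour. Benjamini-Hochberg adjusted p-values below 0.05 over all genes tested were called, and DESeq2 1.42.0 was an alternative. T>C shares were tested where T>C reads reached 50. The scripts were tested on simulated data. SLAM-seq libraries were grouped by label. Depth is 16.0 to 106.1 M counts per RNA-seq library, and no molecular identifiers are stated, so counting precision covers counting error only.

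Members called in a 0 h, RIP, between-line or SLAM-seq comparison are given per library, up to the 10 largest, or else the 2 largest each way. The 3 largest called of 48 other pathway genes are named. The members and lists were chosen with earlier results of these data known.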

Additional observations from a re-analysis of the deposited data

Results flagged for a closer look

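The response to siFBL at 0 h differed between C4-2 and HEK293T for 4 of the 31 genes, by a direct test of the difference in 1 edgeR model of both time courses. TM7SF2 differed by 2.57 on the log2 scale (adjusted p = 0.0056), with 2 of 2 siFBL libraries above both controls in C4-2 and 2 of 2 below them in HEK293T. FADS1 differed by −1.28 (adjusted p = 1.86e-06), lower in 2 of 2 C4-2 libraries. SREBF1 differed by −0.87 (adjusted p = 0.022), with 2 of 2 siFBL libraries below the controls in C4-2 and 2 of 2 above them in HEK293T. EBP differed by −0.78 (adjusted p = 0.0424), lower in 2 of 2 C4-2 libraries and on both sides of the controls in HEK293T.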

How the results depend on the processing

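Counts of called members were recomputed with DESeq2, relative log expression factors, no filter on low counts, ribosomal protein scaling, the 0 h libraries alone, a replicate block, and with each library left out. The alternatives that use each later hour's libraries alone were chosen after seeing the data. At 0 h in C4-2 the 12 called members became 7 with ribosomal protein scaling, and over the later hours the 15 became 4 with the 6 h libraries alone. In HEK293T at 0 h, siFBL called 0 members in the form reported, 1 with DESeq2, 1 with no filter and 3 with the replicate block, and siNOP56 called 0, 1 with DESeq2 and 1 with the replicate block. Over the later hours siFBL called 19 and siNOP56 10, and 0 with 6, 12 or 24 h alone. SLAM-seq reads called 1 member, 4 with DESeq2, 2 with relative log expression factors, 3 with no filter, 7 with the header hour and 2 with the replicate block. The T>C share called 0 members by labelled hour, where the test could hardly call any gene, and 9 with the header hour. The cause of these shifts was not tested. Leaving out 1 library at a time gave 30 to 30 called members in RIP, 6 to 13 in C4-2 at 0 h, 15 to 17 later, 0 to 1 in HEK293T with siFBL at 0 h, 12 to 20 later, 0 to 1 with siNOP56 at 0 h, 8 to 12 later, 2 to 4 for the difference between lines, 13 to 20 for C4-2 slopes, 11 to 17 for HEK293T slopes and 1 to 2 for SLAM-seq reads. For the difference between lines only the 8 libraries of 0 h were left out in turn.

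With ribosomal protein scaling, RIP values changed sign for ELOVL6 (0.0703), MVD (0.243), NSDHL (0.133), PMVK (0.0988), SCAP (0.648) and SQLE (0.384). So did C4-2 slopes of ACAT2 (−0.0436), ACLY (−0.0575), DHCR7 (−0.0426), EBP (−0.0452), FADS1 (−0.0241), FADS2 (−0.0258), FDPS (−0.0358), LSS (−0.0419), MVD (−0.0364), PMVK (−0.0447), SC5D (−0.0302), SCAP (−0.0534), SCD (−0.0256) and SREBF2 (−0.0389). HEK293T slopes changed sign for ACAT2 (−0.00659), FADS1 (−0.00926), GGPS1 (−0.0141), MVD (−0.00554), NSDHL (−0.00656) and SC5D (−0.000648). This scaling moves the median of all genes by construction.

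Over all genes, C4-2 at 0 h had 1988 called and 3980 with DESeq2 (633 to 3051 with 1 library left out). HEK293T siFBL at 0 h had 260, 778 with DESeq2, 861 with the replicate block and 10 with the 0 h libraries alone (11 to 363). siNOP56 had 28, 213 with DESeq2, 18 with relative log expression factors, 6 with ribosomal protein scaling, 140 with the block and 0 with 0 h alone (0 to 33). siFBL against siNOP56 had 3 and 19 with DESeq2. The difference between lines had 1321 (806 to 1711). SLAM-seq reads had 132, 629 with DESeq2, 596 with no filter and 1655 with the header hour (75 to 137). The T>C share had 0 by labelled hour and 3711 with the header hour. The C4-2 slope difference had 1, 18 with DESeq2 and 0 with relative log expression factors, no filter, ribosomal protein scaling or the replicate block, and the HEK293T slope differences had 0 and, with DESeq2, 6 for siFBL and 3 for siNOP56.

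No label says that a replicate number marks a shared culture or day. In HEK293T, deviations of libraries with the same number correlated from −0.0228 to 0.0337 between siCTRL and siFBL, −0.0104 to 0.229 between siCTRL and siNOP56 and 0.00953 to 0.0552 between siFBL and siNOP56. In C4-2, deviations of libraries with the same number in the column names correlated from −0.122 to 0.0817 between siCTRL and siFBL. With the replicate block, C4-2 had 13 called members at 0 h, 16 over the later hours and 19 siCTRL slopes. The difference between lines had 6 called members with a block term for each line, instead of 4. With 2 libraries a group, differences well beyond the standard errors given could also go uncalled. INSIG1 in HEK293T with siFBL at 0 h did so in edgeR's test (−1.28, SE 0.36, adjusted p = 0.0769).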
